A study of Mus musculus with 192 samples.

Results

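Mt1 and Mt2 encode metallothioneins, small cysteine-rich proteins that bind zinc, copper and cadmium. Their RNA was followed in 96 single cells labelled as mouse embryonic stem (ES) cells, of the line R1. The genes are 2 of 24264 in the table of molecule counts, and they had been picked out by their measured variation between cells, so their levels and spread are given as descriptions. A level is the number of molecules of a gene per 10000 gene molecules of its well, with spike-in RNAs and repeats left out of the total. A well is 1 chamber of a microfluidic chip. The wells were read in classes by their gene molecules: 51 RNA-rich wells held at least 50000 and 45 low-RNA wells held at most 40000, with 0 wells between.

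All wells came from 1 culture of R1 cells grown to confluency on irradiated mouse embryonic fibroblast feeders, which were removed only by settling. Dead and early apoptotic cells were depleted, and the rest were frozen with DMSO and thawed before loading. There was no treatment, genotype or time series. The design set plain libraries (96 samples) beside the same libraries after 9 more PCR cycles (96 samples), and each of the 96 cell barcodes is carried by both forms. The table holds 1 column per barcode, so the forms were not compared here. Wells are cells of a single sample, so they carry no p-value here, and correlations over wells are descriptions. Their points share the culture, the chip and the well total as denominator.

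RNA-rich wells held 51390 to 573648 gene molecules (median 98750) and low-RNA wells 8774 to 35543 (median 22234). Spike-in medians were 7992 and 6098 molecules. The highest gene totals, 573648 in H03 and 319520 in C03, came with 55740 and 36465 spike-in molecules. These totals therefore cannot be read as the RNA content of a cell. Low-RNA well H12 had 926 spike-in molecules. The median share of mitochondrially encoded RNA was 10.4% in RNA-rich and 29.1% in low-RNA wells. The summed level of 10 ES cell markers was 17.7 to 225 in RNA-rich and 38.2 to 143 in low-RNA wells, so some RNA of these markers was present in every well. Such a sum does not identify each cell. In RNA-rich wells D02 and E02 it was 23.1 and 28.7, beside sums of 204 and 151 for 14 feeder fibroblast markers.

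Metallothionein genes are classic targets of the zinc-sensing transcription factor Mtf1, which binds short metal response elements near their start sites. Glucocorticoids and oxidative stress are also known to induce them. Mt1 and Mt2 are made in most tissues, whereas Mt3 is known from brain and Mt4 from squamous epithelia. In GRCm38, the 4 genes lie on the forward strand of chromosome 8: Mt4 at 94137197 to 94139031, Mt3 at 94152607 to 94154146, Mt2 at 94172664 to 94173568 and Mt1 at 94179082 to 94180327. Mt2 and Mt1 are separated by 5513 bases.

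The stretches before the annotated starts of Mt2 and Mt1 are shown because both genes were measured together. Their shared regulator is known to act near start sites. More metal response element matches and a TATAAA lay inside each annotated gene, as given below, so these stretches need not hold the sites that Mtf1 uses. They are from the RefSeq promoter table (GRCm38.p6), forward strand, 5′ to 3′, and end before the annotated gene. Capitals mark matches to the metal response element, searched as TGCACNC or TGCGCNC on both strands. The Mt2 stretch is chr8:94172368-94172617 and the Mt1 stretch is chr8:94178839-94179081.
Mt2: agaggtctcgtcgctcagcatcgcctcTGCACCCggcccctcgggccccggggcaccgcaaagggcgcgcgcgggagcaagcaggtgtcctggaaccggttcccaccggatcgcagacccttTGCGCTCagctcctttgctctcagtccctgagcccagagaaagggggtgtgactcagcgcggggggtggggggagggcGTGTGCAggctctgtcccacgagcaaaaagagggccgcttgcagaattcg
Mt1: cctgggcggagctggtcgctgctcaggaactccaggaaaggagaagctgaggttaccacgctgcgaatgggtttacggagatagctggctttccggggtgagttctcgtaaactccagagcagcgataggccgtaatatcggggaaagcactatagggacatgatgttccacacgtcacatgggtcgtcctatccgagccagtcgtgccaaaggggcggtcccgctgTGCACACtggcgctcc

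The Mt2 stretch held 3 matches and the Mt1 stretch 1. In the 250 bases before the start of all 32851 promoters of the table, 21.4% held at least 1 match and 1.26% at least 3. The Mt2 stretch also held 1 antioxidant response element, searched as TGACNNNGC and present in 10.2% of promoters. The Mt1 stretch held 2 GC boxes (GGGCGG, 32.7% of promoters). Neither held an E-box (CACGTG, 6.02%), a Stat site (TTCNNNGAA, 7.02%), a glucocorticoid response element (0.00913%) or a TATA box (TATAAA, 12.4%), and no match overlapped one of another motif.

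More matches lay just inside the annotated genes. GENCODE places the first start of Mt1 229 bases before its start codon, with further transcripts starting at 94179211 and 94179241 and a TATAAA at 94179210. Those 229 bases held 4 metal response element matches, a number reached in the same first stretch by 0.102% of 133810 transcripts. The 184 bases between the Mt2 start and its start codon held 3 matches, a number reached by 0.369% of 134866 transcripts, and a TATAAA at 94172753. These shares are of the first bases of annotated spliced transcripts, several per gene included, and are not comparable with the shares of promoters above. A stretch of 30 bases with 2 matches is shown for each gene, at chr8:94179086-94179115 for Mt1 and chr8:94172672-94172701 for Mt2 (GRCm38, forward strand).
Mt1: agctcTGCACTCcgcccgaaaagTGCGCTC
Mt2: gggcGTGTGCAggcggcgggggcGCGTGCA
A match is a run of letters and not a measured binding site.

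Mt1 RNA was found in every well, and its level ranged far more widely in RNA-rich wells than in low-RNA wells. In the 51 RNA-rich wells the Mt1 level was 1.34 in the lowest well (H07), 3.39 at the median and 54.3 in the highest (C06), with quartiles of 2.00 and 6.97. These levels rest on 7 to 496 Mt1 molecules per well (median 30). In the 45 low-RNA wells the Mt1 level was 1.43 in the lowest (A12), 3.75 at the median and 7.37 in the highest (B11), from 2 to 26 molecules (median 8). The classes therefore overlapped over the whole low-RNA range, and 12 RNA-rich wells lay above every low-RNA well.

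Mt2 RNA was likewise found in every well. Its level in RNA-rich wells was 1.09 in the lowest (C02), 3.14 at the median and 29.7 in the highest (C06), with quartiles of 1.86 and 5.19, from 7 to 272 molecules (median 31). In low-RNA wells it was 1.25 in the lowest (G06), 3.09 at the median and 8.08 in the highest (G11), from 2 to 20 molecules (median 6). Only 5 RNA-rich wells lay above every low-RNA well.

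The typical level of both genes was close in the classes of wells. The median in low-RNA wells was 1.11 times that in RNA-rich wells for Mt1 and 0.985 times for Mt2. Of 2785 genes with a median above 0 in both classes, 46.8% differed between the class medians by at least 1.5 times in either direction, and neither Mt1 nor Mt2 was among them. With mitochondrially encoded genes and the ribosomal RNA gene Rn45s left out of the total, the Mt1 medians became 5.99 in low-RNA and 3.81 in RNA-rich wells, and the Mt2 medians 4.81 and 3.87. On that scale the Mt1 ratio passes 1.5. Fewer RNA molecules in a cell and a lower yield of the reaction cannot be told apart in these totals.

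**Figure D1:**
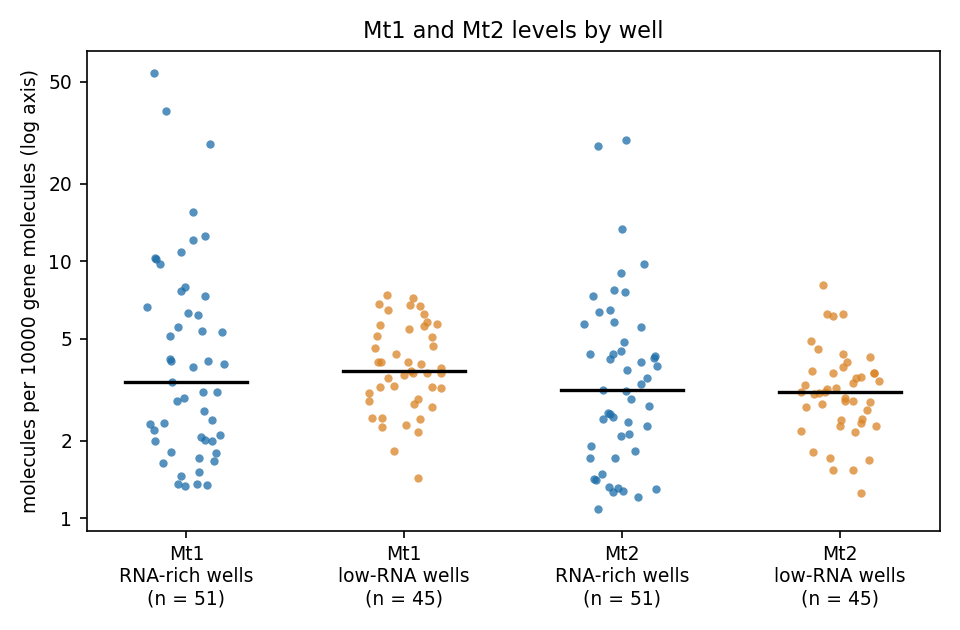
Levels of Mt1 and Mt2 in molecules per 10000 gene molecules (log axis) in 51 RNA-rich and 45 low-RNA wells; each point is a well, spread sideways at random, and each line is a median. The medians lie between 3.09 and 3.75, while the highest RNA-rich wells reach 54.3 for Mt1 and 29.7 for Mt2.

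A few wells held much of the metallothionein RNA. Well C06 had a Mt1 level of 54.3 (496 molecules, exact Poisson 95% interval of the level 49.6 to 59.3) and a Mt2 level of 29.7 (271 molecules, 26.2 to 33.4). Well D01 had 38.5 (34.7 to 42.6) for Mt1 and 27.98 (24.8 to 31.5) for Mt2. Well E12 had 28.5 (25.1 to 32.2) for Mt1 and 13.4 (11.1 to 16.05) for Mt2. These intervals cover counting error only, and the technical spread of the spike-in RNAs, given below, was wider.

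Wells C06, D01 and E12 held 35.6% of the summed Mt1 level of the 51 wells and 29.3% of that of Mt2. The next well by Mt1, H05, had 15.5 (13.6 to 17.7) for Mt1 and 7.34 (6.02 to 8.87) for Mt2. By Mt2 the next was D06 with 9.73, followed by A09 with 8.98, C11 with 7.70 and D07 with 7.56, all above H05. At the other end, H07 had 16 Mt1 molecules and an interval of 0.765 to 2.17.

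The highest Mt1 level was 16.01 times the median over RNA-rich wells, and the highest Mt2 level 9.43 times. Among the 329 genes that averaged at least 50 molecules per RNA-rich well, 2.74% had a highest level of at least 9 times their median, a limit set after the values were seen, and the median ratio was 1.90. Mt1 ranked 5 and Mt2 ranked 9 by this ratio, so the metallothioneins are among the 9 genes with the most extreme single wells at that depth.

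The spread exceeded the technical spread of spike-in RNAs in RNA-rich wells. The coefficient of variation (CV, the SD as a percentage of the mean) of Mt1 was 143%, where the spike-in fit gave 22.6% at the same mean. Its noise ratio, the squared CV over the fitted squared CV, was 40.02, and 24.01 without the highest well. For Mt2 the CV was 116% against 26.1%, with a ratio of 19.9 and 13.4 without the highest well. A ratio of at least 2 with and without the highest well was met by 7% of 7768 genes, whose median ratio was 1.36. This contrast is of the kind that picked out both genes. Without C06, D01 and E12, wells left out after their values were seen, the ratios were 8.50 for Mt1 and 4.37 for Mt2.

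In low-RNA wells neither gene passed that limit. The CV of Mt1 was 38.1%, below the 58.9% of the spike-in fit at its mean of 9.29 molecules (ratio 0.418). Mt2 had 41.5% against 65.8% (ratio 0.398). Of 2695 genes there, 0.594% were called, and the median ratio over all of them was 0.473, so the spike-in fit lay above most genes in these wells. No low-RNA well reached the levels of C06, D01 or E12 for either gene.

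Mt1 and Mt2 varied together from well to well. Over the 51 RNA-rich wells Spearman's rho between their levels was 0.806, and Pearson's r of log2(level + 1) was 0.88. Without C06 and D01, the wells farthest from the median, they were 0.781 and 0.82. Over the 39 RNA-rich wells whose Mt1 level was not above the highest low-RNA well, rho was 0.684. The relation was therefore present outside the highest wells, as the plot of Mt2 against Mt1 shows.

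**Figure D2:**
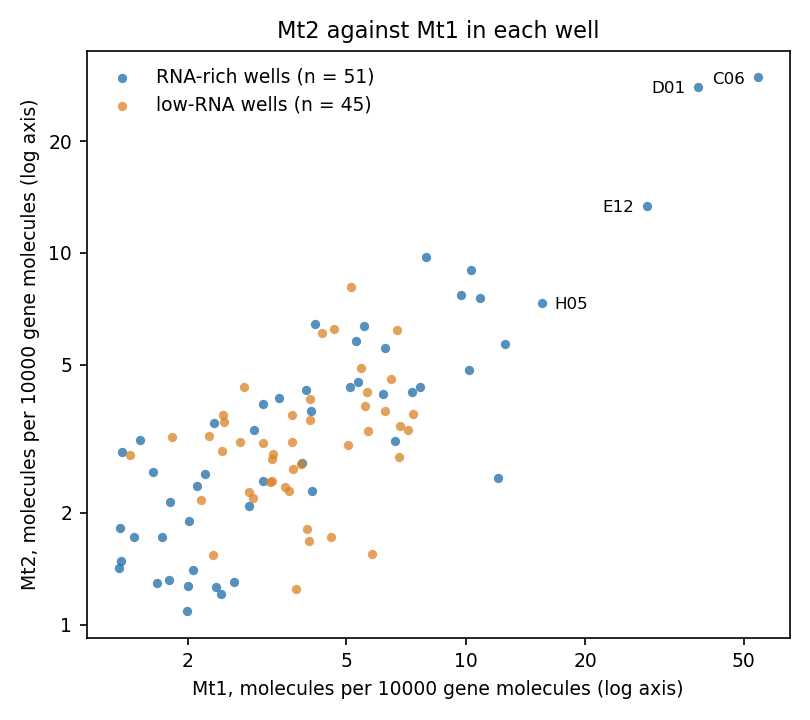
Mt2 level against Mt1 level, both in molecules per 10000 gene molecules on log axes; each point is a well, 51 RNA-rich and 45 low-RNA. C06, D01 and E12 lie apart at the top right, and the remaining RNA-rich wells form a rising band in which the low-RNA wells sit in the middle.

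Few gene pairs were as close. Among the 53956 pairs that those 329 genes form, 0.0945% had a rho of at least 0.806, which is 51 pairs, and the median rho was 0.07. In 37 of them at least 1 member had under 50% of its molecules from reads with a single genome match. Of the other 14, Mt1 with Mt2 was the only pair without a mitochondrially encoded gene. Mt1 had 100% and Mt2 99.9% of their molecules from uniquely matched reads, so reads shared between the genes do not enter this value. Each was the closest gene to the other among all genes tested. Next came Sf1 for Mt1 (0.663) and Gcat for Mt2 (0.616).

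In the 45 low-RNA wells rho between Mt1 and Mt2 was 0.373, and 0.318 without F08 and G11. The counts there are small, with medians of 8 and 6 molecules. Drawn down to 8000 gene molecules in every well, an alternative chosen after the data were seen, rho was 0.634 in RNA-rich and 0.260 in low-RNA wells. The difference between the classes was not tested.

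The share of Mt1 among metallothionein molecules spread beyond counting error in RNA-rich wells, and about as far as the spike-in fit gives. The transcripts are of near-equal length in the table, 642 bases for Mt1 and 656 for Mt2. Any RNA of an antisense gene over Mt2, described below, could be counted as Mt2 and would lower the share. Mt1 gave 59.2% of the metallothionein molecules of all RNA-rich wells together and a median of 54.5% per well. The lowest share was 31.8% in A11 and the highest 82.9% in F10, where 102 Mt1 molecules stood beside 21 of Mt2. The SD between wells was 10.5 percentage points. Counting alone would give 6.51, and the spike-in fit, which holds technical noise beyond counting, 12.1.

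Over the 32 RNA-rich wells with at least 50 metallothionein molecules the SD of the Mt1 share was 10.4 points, against 4.93 from counting and 9.42 from the spike-in fit. In low-RNA wells Mt1 gave 55.9% of the molecules. The SD of 10.97 points there lay below the 13.4 that counting alone gives and the 23.9 of the spike-in fit. Because the fit can exceed the measured spread in this way, it cannot decide whether the share varies beyond technical noise. C06 had 64.7% Mt1, D01 57.9% and E12 68.01%.

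The other family members were at or near 0. Mt3 had 16 molecules over all wells, in 9 RNA-rich and 3 low-RNA wells, with at most 2 in a well. Mt4 had 0 molecules, which allows a pooled level of up to 0.00438 per 10000 (3 molecules of the total, counting error only). An annotated antisense gene, Gm45774, overlaps Mt2 on the reverse strand (94170748 to 94173412) and has no row of its own here. Whether genes were counted by strand is not given in the sources used here, so its RNA cannot be told apart from that of Mt2.

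Few neighbours of the locus could be read. Of 24 annotated genes within 250 kb of Mt1 and Mt2, 14 are in the table and 2 besides the metallothioneins had a mean of at least 5 molecules. Their likeness was measured against the metallothionein score, the mean of log2(level + 1) of Mt1 and Mt2. Nudt21, a factor of RNA 3′ end processing, had a rho of 0.12 with the score over RNA-rich wells. Nup93, a nuclear pore protein whose gene starts 34.2 kb beyond Mt1, had 0.14.

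Over RNA-rich wells, 3146 genes with on average at least 5 molecules were ranked by rho with the score, Mt1 and Mt2 left out. At a rho of at least 0.4 there were 16 genes (0.509%), and at most -0.4 there were 6 (0.191%). These are descriptions of the wells that were also used to rank the genes, and they depend on the scale and the wells. With division by the spike-in total there were 25 and 2 genes, and with no normalization 151 and 0. Without the 9 wells high in the keratins Krt8 and Krt18 there were 33 and 14. Without C03 and H03, whose spike-in totals stand apart, there were 12 and 14. The limit fell in a continuous range, with Nup205 at 0.401 just inside and Ahcy at 0.395 just outside.

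Sf1, a splicing factor that recognises the intron branch point, was the closest with a rho of 0.63. Its level in RNA-rich wells was 0.322 in the lowest, 0.877 at the median and 2.25 in the highest, which was E12. D01 stood at 1.95, whereas C06, with the most metallothionein RNA, stood at 0.875, the middle of the range. The Sf1 relation thus did not rest on C06 and D01: without them rho was 0.63.

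Next came Gcat, Paics, Chka and Gstt2, which encode metabolic enzymes. Gcat, a mitochondrial enzyme of threonine breakdown, had a rho of 0.57, with a level of 0 in the lowest well, 0.678 at the median and 1.86 in the highest. C06 had 1.53, D01 1.03 and E12 0.902, all above the median. Paics, an enzyme of purine synthesis, had a rho of 0.53 and a level of 0.735, 3.21 and 7.70 in the lowest, median and highest well, and 3.72, 5.25 and 4.51 in C06, D01 and E12. With every RNA-rich well thinned to 50000 gene molecules in a single random draw, Gcat was at 0.27 and Paics at 0.34, both below the limit. In that draw 8 of the highest 15 genes stayed at 0.4 or above. Chka, a choline kinase, had a rho of 0.50 and levels up to 1.49. Gstt2, a glutathione transferase, had 0.49, yet its highest level of 8.40 was in F10, the well with the highest Mt1 share, and it was at 0 in C06.

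The remaining genes of the highest 15 had a rho of 0.40 to 0.46. They include the cell cycle repressor E2f8 (0.46), Taf3, a subunit of the general transcription factor TFIID (0.46), Zfml (0.43), Mier1 (0.43), Ankrd10 (0.42), the splicing protein Srsf11 (0.41), the site-1 protease Mbtps1 (0.40), the Hsp70 partner Bag1 (0.40) and the RNA 1500012F01Rik (0.40). The deubiquitinase Usp9x had 0.42, but only 43.4% of its molecules came from uniquely matched reads and its value is uncertain. Srsf11 had its highest level, 6.79, in D01, and 5.36 in C06 and 5.75 in E12, against a median of 2.43. Thinned to 50000 gene molecules a well, E2f8 (0.32), Bag1 (0.36), Zfml (0.37), Srsf11 (0.38) and Mbtps1 (0.39) fell below the limit.

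The lowest rho belonged to Haus8, a subunit of the augmin complex of the mitotic spindle, at -0.45. Its level was 0.109 in C06, 0.206 in D01 and 0.113 in E12, against a median of 0.542 and a highest of 2.22. Pitpnb, a lipid transfer protein, had -0.45, Rer1, a retention factor of the early secretory path, had -0.43, and the phosphatase inhibitor Ppp1r11 had -0.41. Basp1 and Ddost, a subunit of oligosaccharyltransferase, had -0.41 each. Below the limit in size stood 3110003A17Rik, Eif3e, Myl12a and Trappc2l, each at -0.40. None of the 6 genes past -0.4 stayed past it with division by the spike-in total, where they ran from -0.33 to -0.24, or with no normalization, where they ran from -0.19 to -0.08 and Haus8 was at -0.13.

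The low-RNA wells, which had no part in the ranking, gave weaker values for the same genes. The 16 genes had a median rho of 0.11 there, from -0.32 to 0.31, with 13 above 0 (81.3%, against 53.1% of all 3146 genes, whose median was 0.01). None of the 16 reached 0.4. The 6 genes at the other end had a median of -0.09, and 2 of them were above 0. The 16 genes had a median of 1.77 molecules per low-RNA well, a depth at which a weak rho cannot be read. Mt1 and Mt2 themselves had noise ratios of 0.418 and 0.398 there, so their own spread did not exceed the spike-in fit. The low-RNA values therefore neither back nor weaken the ranking. Sf1 was at 0.09 and Gcat at 0.23 in low-RNA wells, while Chka was at -0.06.

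**Figure D3:**
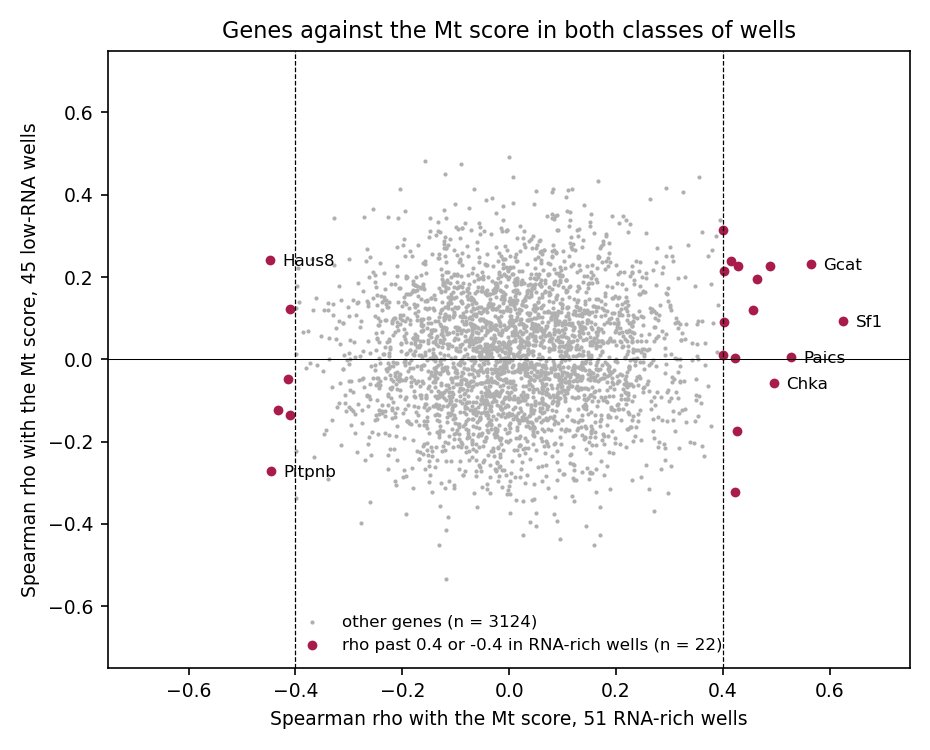
Spearman's rho of each of 3146 genes with the metallothionein score in 51 RNA-rich wells (horizontal) and in 45 low-RNA wells (vertical); each point is a gene, and coloured points passed 0.4 or -0.4 (dashed lines) in RNA-rich wells. Sf1 stands farthest right at 0.63, and the coloured points spread on both sides of 0 vertically.

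Genes of metal handling were read from lists, beside a median rho of 0.01 over all genes tested. Since 0.509% of those were at 0.4 or above and 0.191% at -0.4 or below, a count of 0 in a list of this size says nothing about the list. Of the 18 zinc genes, 2 had enough molecules in RNA-rich wells, and neither passed 0.4 in either direction: the zinc transporters Slc39a7 (-0.18) and Slc39a10 (-0.23). Mtf1 itself had a mean of 2.02 molecules and a rho of 0.08. The zinc exporter Slc30a1, another known Mtf1 target, had a mean of 1.55 and a rho of 0.05. Both were below the depth set for the ranking. Zinc genes below that depth ran from -0.24 (Slc30a7) to 0.35 (Slc39a3, mean 0.118 molecules). Of the 11 copper genes 5 were tested and 0 passed, with a median of -0.06. The copper chaperone Atox1 had -0.09, Cox17, which delivers copper to cytochrome oxidase, -0.18, and the superoxide dismutase Sod1 -0.06.

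Of the 10 iron genes 5 were tested and 0 passed the limit, with a median rho of 0.28, the highest of the lists. All 5 of these were above 0, as were 51.7% of all genes tested. Ftl1, the ferritin light chain, had 0.38, but only 1.68% of its molecules came from uniquely matched reads, so its value is uncertain. The transferrin receptor Tfrc had 0.30 and its highest level, 2.52, was in C06. The iron chaperone Pcbp1 had 0.28 and its highest level, 8.85, in D01. Fth1, the ferritin heavy chain, had 0.05, and Pcbp2 had 0.03. Tfrc and Pcbp1 were named after their values were seen.

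Lists for other known inducers of metallothioneins also held 0 tested members past the limit, read against the same shares. Genes of the glutathione and Nrf2 list below the depth set for the ranking ran from -0.24 (Slc7a11) to 0.46 (Gclc, mean 3 molecules). For glutathione synthesis and targets of the oxidative stress factor Nrf2, 7 of 16 genes were tested, with a median of 0.14, and the peroxiredoxin Prdx1 had 0.21, the thioredoxin Txn1 -0.05 and the glutathione transferase Gsta4 0.07. For the glucocorticoid receptor and its targets 3 of 10 were tested, Sgk1 (0.16), Klf9 (0.13) and Cdkn1a (-0.04). For heat shock 7 of 12 were tested with a median of 0.02, and the chaperone Hspa8, highest in C06 at 18.8, had 0.29 with 4.99% of its molecules from uniquely matched reads. The chaperone Hsp90aa1 had 0.03, with 10.3% unique, and the mitochondrial chaperonin Hspe1 -0.04. For the LIF and Stat3 pathway, which maintains mouse ES cells, 4 of 10 were tested with a median of 0.05, and Pim3, also highest in C06 (3.83), had 0.21. The related kinase Pim1 had -0.02 and the transcription factor Klf4 0.09, the last with 38.7% unique.

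Lists of cell state likewise had 0 tested members past the limit, with the same reservation. Of primed state genes below the depth set for the ranking, Fgf5 had 0.47 (mean 0.608 molecules), Otx2 0.19 and Pou3f1 -0.06. The median rho was 0.13 for 9 of 16 hypoxia genes, -0.02 for 10 of 13 immediate early genes, 0.04 for 12 of 18 pluripotency genes, 0.10 for 9 of 12 genes of the primed state and -0.00235 for 15 of 16 genes of G2 and M phase. Of the hypoxia genes, the glucose transporter Slc2a3 had -0.14 and the glycolytic enzymes Ldha and Aldoa 0.13 each. Of the immediate early genes Fos had -0.09, the phosphatase Dusp1 0.22 and Klf6 -0.05. Of the primed state genes the DNA methyltransferase Dnmt3b had 0.02, the Nodal antagonist Lefty1 0.23 and Id3 0.12. Of the G2 and M phase genes the cyclin Ccnb1, with 13.1% unique, had -0.02, Ube2c -0.04 and Top2a -0.01. Among the pluripotency genes Dppa5a had 0.02, Tdgf1 0.06 and Zfp42 0.08. The wells with the most metallothionein RNA differed in this respect: Dppa5a stood at 95.7 in C06 and 159 in E12 but at 19.1 in D01, against a median of 62.1.

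**Figure D4:**
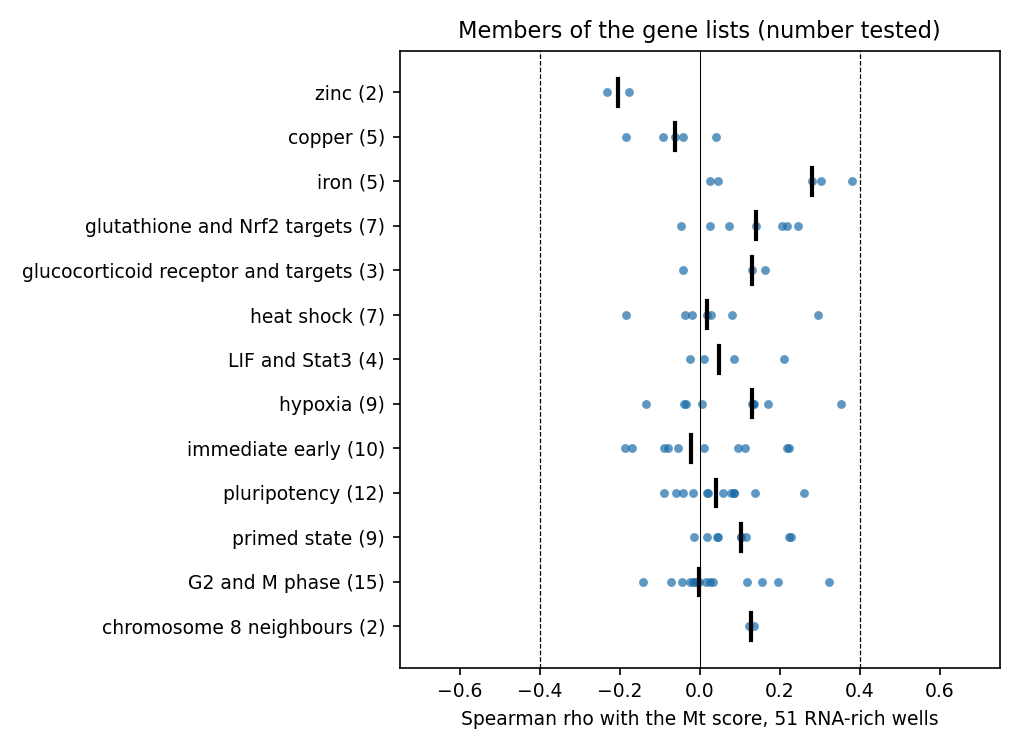
Spearman's rho with the metallothionein score over 51 RNA-rich wells for the tested members of each list (points), with the list median (bar) and the limits of 0.4 and -0.4 (dashed lines). No point lies past a limit; the iron genes have the highest median at 0.28 and the 2 zinc genes the lowest at -0.20.

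The metal response element was also counted before the starts of the genes that followed. Of the 16 genes, 12 were matched in the promoter table and 7 of those held a match (58.3%): Sf1, Chka, Taf3, Ankrd10, Srsf11, Mbtps1 and Nup205. Among all tested genes 2311 were matched and 35% held one. A gene with several promoters counted by the one with the most matches, so these shares are per gene, unlike the shares of promoters given earlier. Of the 6 genes at the other end 3 held one. No test was made of these small counts, and Gcat and Paics were not among those with a match.

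Depth and mixed cells were set beside the score. Over RNA-rich wells rho with the score was -0.10 for total gene molecules, 0.07 for spike-in molecules and 0.09 for the mitochondrial share. C06, D01 and E12 held 91388, 97204 and 88739 gene molecules, near the median. Median Mt1 levels ran from 2.01 to 6.27 over the rows of the chip and from 1.79 to 7.32 over its columns, with 3 to 9 RNA-rich wells in each.

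Spearman's rho with the score was -0.07 for the summed level of 14 feeder fibroblast markers and -0.12 for that of 8 trophectoderm markers over RNA-rich wells. In low-RNA wells the values were 0.37 and 0.33. In RNA-rich wells all 14 feeder markers were detected and their sum ran from 5.19 to 204, with 7.22 in C06, 10.1 in D01 and 9.35 in E12 (median 9.31). Of the 8 trophectoderm markers Elf5 was at 0 in every well, and C06, D01 and E12 had sums of 2.30, 2.78 and 2.82, below the median of 3.61.

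For 6 primitive endoderm markers, of which Sox17 was at 0 in every well, the sum was 0 in C06 and E12 and 9.16 in D01, the highest of the RNA-rich wells. The part of that in the D01 level was not tested. In 9 RNA-rich wells with at least 15 molecules of Krt8 plus Krt18 per 10000, the Mt1 level was 1.34 to 15.5 (median 2.00) and the Mt2 level 1.21 to 8.98 (median 1.82). In the other 42 the medians were 4.03 and 3.63, so the keratin wells lay mostly low, with H05 and A09 as the exceptions.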

How the data were processed

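The authors deposited a table of molecule counts per gene, spike-in and repeat type for 96 cell barcodes. Per the file headers, a read that matched several places counts at the exonic match nearest the 5′ end, and a further deposited count gives molecules from uniquely matched reads. The submitters' processing notes name Bowtie, mm10 and GRCm38, with no version. All 96 wells were used, no doublet caller was run and 0 columns were left unused. Of gene molecules, 73.3% came from uniquely matched reads.

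Levels, Spearman's rho and the spike-in fit (squared CV = a/mean + b, gamma model with identity link, spike-ins averaging at least 0.1 molecules) were computed with Python 3.11.15, numpy 2.4.6, scipy 1.17.1 and statsmodels 0.14.6. The log2 pseudocount was 1. The technical SD of the Mt1 share was propagated from the spike-in fit at each well's molecules, a step added after the data were seen. The ranking and the noise ratio were tested on simulated data with known answers. Named genes were the metallothionein family, the 15 highest and 10 lowest rho, for each list the tested members past the limit or otherwise the 3 with the highest mean, and the tested chromosome 8 neighbours. Others named are leading wells' or lists' genes chosen after their values were seen. The members, lists and limits were chosen with earlier results of these data known. The lists were zinc, copper, iron, glutathione and Nrf2 targets, glucocorticoid receptor and targets, heat shock, LIF and Stat3, hypoxia, immediate early, pluripotency, primed state, G2 and M phase, and neighbours, with markers of ES cells, feeders, trophectoderm and primitive endoderm. Positions are from GENCODE on GRCm38. Alternatives changed the normalization, the depth, the denominator, the wells, the filter, the score and the correlation.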

Additional observations from a re-analysis of the deposited data

How the results depend on the processing

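Of 74 recomputed values of the main results, 52 stayed within the limits set and 22 moved. The limits were 1.5 times for counts and noise ratios, 0.1 for correlations and 1 SD between wells for levels. In RNA-rich wells that SD (9.54 for Mt1, 5.53 for Mt2) exceeded the median level, so no fall of the median could have passed it. A change of direction was looked for only in correlations of at least 0.4 in size, and 0 were found. The number of genes at a rho of at least 0.4 was 25 with division by the spike-in total, 151 with no normalization, 33 without the 9 keratin wells, 42 with a mean of at least 1 molecule, 57 with no filter and 30 by Pearson's r. The number at -0.4 or below was 2 with the spike-in total and 0 with no normalization. It was 14 without C03 and H03, whose spike-in totals stand apart, and 14 without the keratin wells. With Mt2 alone it was 11, and by Pearson's r 16. Spearman's rho between Mt1 and Mt2 was 0.485 in low-RNA wells with no normalization, 0.260 there and 0.634 in RNA-rich wells at 8000 gene molecules a well, and 0.684 over the 39 RNA-rich wells not above the highest low-RNA Mt1 level. Without mitochondrially encoded genes and Rn45s in the total, the low-RNA medians were 5.99 for Mt1 and 4.81 for Mt2. The noise ratios were 14.4 and 5.62 for Mt1 and Mt2 without C06 and D01, and 8.50 and 4.37 without E12 as well. The cause of these shifts was not tested. Of the 25 ranked genes named, Sf1 and Chka passed the limit under all 10 settings tried for single genes. Of 250 values recomputed for ranked genes 45 moved, and Eif3e turned from -0.40 to 0.00955 with no normalization. Spearman's rho of Gcat was 0.27 and that of Paics 0.34 with wells thinned to 50000 gene molecules.

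No paired analysis was possible because each column of the table belongs to both the plain and the further amplified library of a barcode. Depth limits the low-RNA wells, where Mt1 and Mt2 rest on 2 to 26 molecules a well. A single culture gives no replicate check.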
